A study of Mus musculus with 35 samples.

Results

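The 9 genes described here encode surface proteins by which mouse hematopoietic stem/progenitor cells (HSPCs) are recognised or through which they receive signals, together with the secreted ligand of one of those receptors. They are Kit, Flt3, Cd34, Ly6a, Slamf1, Cd48, Procr, Tek and Angpt1. They were taken by name from a list of HSPC surface markers and receptors, with no threshold on their values, and all 9 were found among the 11982 gene names of the RNA-seq table. The study asked how the histone demethylase JMJD1B, encoded by Kdm3b, shapes gene expression in HSPCs. PolyA RNA of HSPCs from the bone marrow of wild-type (WT) mice and of JMJD1B-/- mice was sequenced, with 2 libraries for each genotype. The JMJD1B-/- mice carry a gene trap in every cell and came from embryonic stem cells of 129P2 origin, and the labels give 129P2xC57BL/6J as the strain of both genotypes. The mice were adult, and the surface markers by which the HSPCs were sorted are not given in the sources used here. The series calls the 2 libraries of a genotype biological replicates without tying them to single animals, so the p-values below measure the spread between these libraries.

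HSPCs depend on signals from their niche in the bone marrow. The receptor tyrosine kinases KIT and FLT3 answer to stem cell factor and FLT3 ligand and drive survival and proliferation, KIT from the stem cell onward and FLT3 mainly in multipotent, lymphoid and dendritic cell progenitors. TIE2, encoded by Tek, binds angiopoietin 1 (Angpt1) and is known for keeping stem cells quiescent. CD150 (Slamf1) and CD48 belong to the SLAM family of immune receptors, and their combination with Sca-1 (Ly6a), KIT, CD34 and the endothelial protein C receptor EPCR (Procr) is used to tell stem cells from more mature progenitors. In adult mice the stem cells with long-term activity are poor in CD48, CD34 and FLT3 and rich in CD150 and EPCR.

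Kdm3b itself stood at 31.0 and 24.3 RPKM in WT HSPCs and at 4.00 and 4.63 RPKM in JMJD1B-/- HSPCs, in the direction of the labels. RPKM is a read count scaled to transcript length and to the size of the library, so that genes can be compared by level. Its log2 fold change was -2.65 (SE 0.24, limma, Benjamini-Hochberg adjusted p = 0.0314). The libraries held an estimated 6100000 to 24600000 reads, with JMJD1B-/- replicate 1 the shallowest, and 3 reads on a transcript of 1 kb amounted to 0.122 to 0.171 RPKM in 3 libraries and to 0.491 RPKM in that one. WT replicate 2 had 332 RPKM of Xist, the RNA of the inactive X chromosome, against at most 0.0510 RPKM in the other libraries, so 1 WT library alone held RNA of female cells. Over 11863 genes with a mean of at least 0.5 RPKM, the log2 fold change had a median of -0.025.

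Of the 9 genes, 8 had a lower mean log2 level in JMJD1B-/- than in WT HSPCs and 1, Kit, a higher one, where 53% of all genes tested were lower. In 6 of them, Flt3, Cd48, Procr, Cd34, Tek and Angpt1, every JMJD1B-/- value was under every WT value, a pattern that 22.7% of all genes tested showed, and in none was every JMJD1B-/- value above WT, as it was for 20.1% of all genes. The table keeps only genes with at least 1 RPKM in some library, and Procr met this through WT replicate 1 alone, so its place among the 6 is not independent of that filter. For Kit, Slamf1 and Ly6a the genotypes overlapped. The fold changes, on log2(RPKM + 0.1) throughout, ran from -1.84 for Flt3 to 0.10 for Kit with a median of -0.93. With limma, 5 genes were lower at an unadjusted p under 0.05 (Flt3, Cd48, Cd34, Tek and Angpt1) and none was higher, where 6.33% of all genes tested were lower and 3.81% higher, or 10.1% in either direction. After Benjamini-Hochberg adjustment over all genes none of the 9 was below 0.05. Of all genes tested, 0.0337% were lower and 0.00843% higher at that level, or 0.0421% together. A test of each gene by its own spread alone called none of the 9 even before adjustment. With 2 libraries against 2 an exact permutation test of a single gene cannot go below p = 0.333. In bulk RNA, fewer cells of a type and less RNA per cell cannot be told apart.

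**Figure D1:**
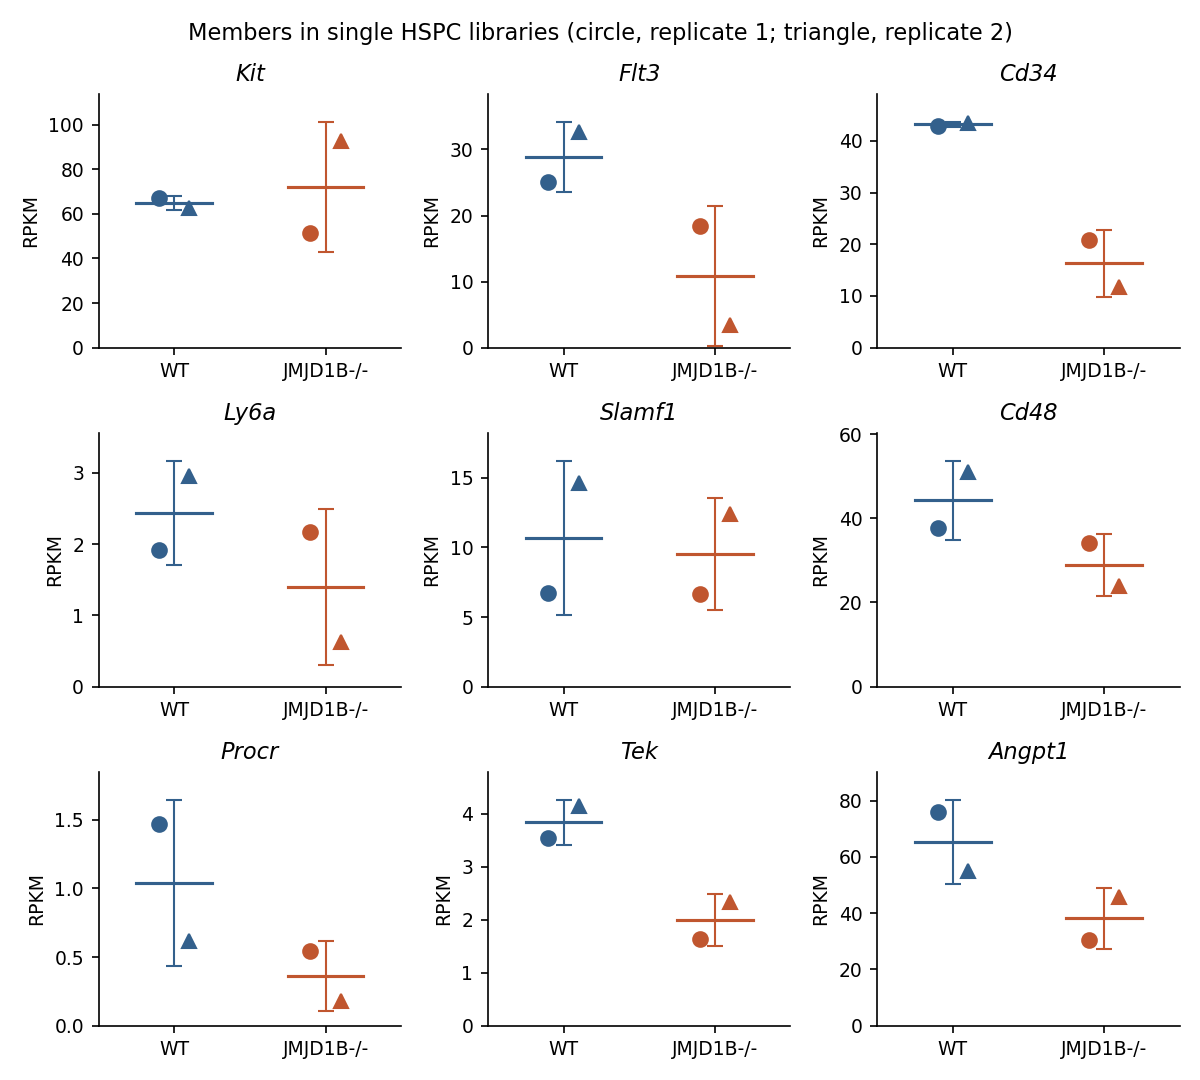
RPKM of the 9 genes in each HSPC library, on linear axes that start at 0. Circles are replicate 1 and triangles replicate 2, horizontal bars the mean and error bars the SD of the 2 libraries of a genotype. The JMJD1B-/- points lie below both WT points for Flt3, Cd34, Cd48, Procr, Tek and Angpt1, and overlap them for Kit, Ly6a and Slamf1.

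Kit was the most abundant of the 9 in 3 of the 4 libraries. It was at 66.9 and 62.5 RPKM in WT and at 51.6 and 92.7 RPKM in JMJD1B-/- libraries, which lay on either side of the WT values. Its log2 fold change was 0.10 (SE 0.28), and the 95% interval from -0.55 to 0.74 leaves room for a change in either direction. Without JMJD1B-/- replicate 1 it was 0.52 (limma, unadjusted p = 0.0177), and without JMJD1B-/- replicate 2 it was -0.32, so the sign rested on which of these libraries was kept.

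Flt3, the relative of Kit among the class III receptor tyrosine kinases, stood at 25.1 and 32.6 RPKM in WT HSPCs and at 18.4 and 3.37 RPKM in JMJD1B-/- HSPCs. All WT values were higher than all JMJD1B-/- values, but the 2 JMJD1B-/- libraries differed 5.46-fold, a wider gap than between the same libraries for 97.3% of genes. The mean was 37.7% of WT and the log2 fold change -1.84 (SE 0.67, limma, unadjusted p = 0.0265, adjusted p = 0.433). JMJD1B-/- replicate 2 set its size, which was -0.64 without that library and -3.05 without JMJD1B-/- replicate 1. Without WT replicate 1 or WT replicate 2 it was -2.03 or -1.66, with unadjusted p-values of 0.0662 and 0.116 from limma.

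Among the other class III kinases, Csf1r, the receptor of the macrophage growth factor M-CSF, was at 9.22 and 7.73 RPKM in WT and 3.75 and 1.45 RPKM in JMJD1B-/- libraries (log2 fold change -1.80, limma, unadjusted p = 0.00484, adjusted p = 0.275). Pdgfrb, a growth factor receptor of stromal cells, was at 5.11 and 3.77 against 2.74 and 3.17 RPKM (log2 fold change -0.56, unadjusted p = 0.148 with limma). Of the 4 class III kinases tested, Flt3 and Csf1r were lower at an unadjusted p under 0.05, and Pdgfra was not analysed here. Of all genes tested, 6.33% were lower and 3.81% higher at that level, and 42.9% did not overlap between genotypes in either direction. Of 11 markers of monocytes and macrophages, Csf1r among them, 6 were lower and 0 higher at an unadjusted p under 0.05 and the other 5 overlapped between genotypes, such as Emr1, which was highest in JMJD1B-/- replicate 1. Their summed level was 193 and 234 RPKM in WT and 168 and 48.5 RPKM in JMJD1B-/- libraries, again lowest in replicate 2. None of the 11 was at 0 in any library. The part of monocytic cells in the Flt3 result was not tested.

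Cd34 encodes the sialomucin that marks progenitors and that adult long-term stem cells largely lack. It was at 42.9 and 43.5 RPKM in WT and at 20.9 and 11.7 RPKM in JMJD1B-/- libraries, 37.8% of WT in the mean. The WT libraries were within 1.02-fold of each other, closer than for all but 5.77% of genes, and the JMJD1B-/- libraries were 1.78-fold apart. This gave a log2 fold change of -1.46 (SE 0.28, limma, unadjusted p = 0.00109, adjusted p = 0.185), which placed Cd34 at rank 68 of all genes by p. Leaving out any library moved it between -1.87 and -1.04, always with an unadjusted p under 0.05. Granulocyte markers divided beside it. Of 10 tested, 6 were lower and 2 higher at an unadjusted p under 0.05, beside 6.33% and 3.81% of all genes tested. The sum over the 12 listed in the table was 304 and 207 RPKM in WT and 98.4 and 59.1 RPKM in JMJD1B-/- libraries. The lower ones included Mpo, which encodes the myeloperoxidase of primary granules, at 131 and 79.0 against 21.4 and 12.1 RPKM. The higher ones were S100a9, at 2.79 and 1.41 against 8.01 and 10.8 RPKM, and S100a8, at 7.24 and 4.74 against 8.71 and 10.6 RPKM, which encode the calprotectin of neutrophils. Camp, a gene of mature neutrophil granules, was at 0.0948 and 0 RPKM in WT and at 0 and 1.03 RPKM in JMJD1B-/- libraries. Whether granulocytic cells had a part in the Cd34 value was not tested.

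Ly6a, the gene of Sca-1, was near the lower end in every library although Sca-1 is a usual marker for sorting stem cells. Its values were 1.92 and 2.96 RPKM in WT and 2.17 and 0.629 RPKM in JMJD1B-/- libraries. They overlapped, since JMJD1B-/- replicate 1 lay between the WT libraries. In WT the mean of 2.44 RPKM exceeded that of only 17.1% of listed genes, whereas the mean of Kit exceeded 94.3%. Ly6a had a log2 fold change of -0.95 (SE 0.65, 95% interval -2.47 to 0.56). It was -1.77 without JMJD1B-/- replicate 1 (limma, unadjusted p = 0.00524) and -0.14 without JMJD1B-/- replicate 2. Ly6 genes resemble each other closely, reads may be divided among them, and how shared reads were counted is not given in the sources used here, so the level of Ly6a is uncertain. Ly6c2 was at 34.0 and 16.5 against 16.6 and 7.42 RPKM (log2 fold change -1.09, limma, unadjusted p = 0.0436) and was the only gene of the 5 Ly6 genes tested with an unadjusted p under 0.05. Ly6c1 was at 7.47 and 4.42 against 4.32 and 2.18 RPKM, Ly6e at 50.5 and 55.2 against 44.7 and 42.2 RPKM, and Ly6d at 0.329 and 2.07 against 5.14 and 0.548 RPKM.

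The 250 bases before the annotated start are shown for Kit, one of the genes whose genotypes overlapped, and for Flt3 and Cd34, the 2 genes with the lowest fold changes among those with an unadjusted p under 0.05, since the study concerns histone marks on chromatin. They are from RefSeq (GRCm38.p6), in the direction of the gene, and capitals mark CpG dinucleotides, the sites of DNA methylation. Kit lies at chr5:75574737-75574986 on the plus strand, Flt3 at chr5:147400490-147400739 on the minus strand and Cd34 at chr1:194938571-194938820 on the plus strand.
Kit: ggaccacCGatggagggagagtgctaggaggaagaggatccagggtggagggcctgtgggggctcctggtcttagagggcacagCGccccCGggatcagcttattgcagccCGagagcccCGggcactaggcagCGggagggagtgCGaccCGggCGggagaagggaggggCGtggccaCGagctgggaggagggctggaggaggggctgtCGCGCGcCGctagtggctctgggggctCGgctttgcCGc
Flt3: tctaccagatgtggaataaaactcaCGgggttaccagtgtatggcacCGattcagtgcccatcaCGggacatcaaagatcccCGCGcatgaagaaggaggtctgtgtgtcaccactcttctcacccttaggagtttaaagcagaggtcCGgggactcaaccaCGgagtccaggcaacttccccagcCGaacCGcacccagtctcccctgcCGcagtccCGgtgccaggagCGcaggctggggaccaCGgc
Cd34: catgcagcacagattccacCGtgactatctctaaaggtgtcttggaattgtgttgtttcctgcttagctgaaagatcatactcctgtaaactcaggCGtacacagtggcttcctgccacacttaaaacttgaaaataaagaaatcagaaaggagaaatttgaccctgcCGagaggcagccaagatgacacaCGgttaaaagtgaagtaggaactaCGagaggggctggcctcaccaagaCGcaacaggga
The Kit promoter held 17 CpG and 70.8% G and C, the Flt3 promoter 13 CpG and 59.2%, and the Cd34 promoter 6 CpG and 46.4%, beside medians of 6 CpG and 52.0% over 27025 promoters. So the 2 genes with the lowest values differed from each other in this respect. A promoter was found for 7 of the 9 genes. Procr had 13 CpG, Cd48 had 4, Slamf1 had 3 and Tek had 2. Letters known from the binding motifs of blood cell factors were searched on both strands of the same windows. They were GATAA for the GATA factors and TGTGGT for the RUNX factors. For the ETS factors GGAAGT was used. For the factors that bind an E-box CAGCTG was used. The letters of a TATA box, TATAAA, were searched as well. No 2 of the 7 shared a match. The ETS letters occurred in Flt3, 75 bases before the start, the RUNX letters in Cd48, the GATA letters in Slamf1 and the E-box in Procr. Among all promoters 20.0% held the ETS letters, 14.2% the RUNX letters, 23.0% the GATA letters, 12.8% the E-box and 3504 of 27025 the TATA box. These are matches of letters and not binding sites.

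Slamf1 (CD150), which stays high on long-term stem cells, was at 6.75 and 14.6 RPKM in WT and at 6.68 and 12.4 RPKM in JMJD1B-/- libraries. The WT libraries alone were 2.16-fold apart, a wider gap than for 96.1% of genes. For Slamf1 the log2 fold change was -0.12 (SE 0.43) with a 95% interval of -1.13 to 0.88, and it turned to 0.43 without WT replicate 2 and to 0.32 without JMJD1B-/- replicate 1.

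Cd48, a ligand of CD2 and CD244 that rises as stem cells become progenitors, was at 37.7 and 51.0 RPKM in WT and at 34.2 and 23.8 RPKM in JMJD1B-/- libraries. The genotypes did not overlap, although WT replicate 1 and JMJD1B-/- replicate 1 were close. The log2 fold change was -0.62 (SE 0.25, limma, unadjusted p = 0.0392, adjusted p = 0.477). Without WT replicate 2 it was -0.40 and without JMJD1B-/- replicate 2 it was -0.36, with unadjusted p-values of 0.269 and 0.138 from limma. The ratio of Slamf1 to Cd48 within a library, 0.179 and 0.286 in WT and 0.196 and 0.521 in JMJD1B-/-, overlapped between genotypes.

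Of 8 SLAM family genes and adaptors tested, Cd48 among them, 3 were lower and 0 higher at an unadjusted p under 0.05. Of all genes tested, 6.33% were lower and 3.81% higher. The median log2 fold change of the 8 was -0.77. Leaving out JMJD1B-/- replicate 1 gave -1.32, and leaving out JMJD1B-/- replicate 2 gave -0.41. Beside Cd48 the lower genes were Cd244, which encodes a receptor of CD48, and Cd84. Cd244 was at 10.6 and 8.88 against 7.04 and 2.18 RPKM (log2 fold change -1.28, limma, unadjusted p = 0.0374). Cd84 was at 22.6 and 22.6 against 16.0 and 8.91 RPKM (-0.92, limma, unadjusted p = 0.0158). Ly9 was at 4.24 and 4.52 against 6.86 and 1.70 RPKM and Slamf7 at 1.19 and 1.08 against 0.873 and 0.262 RPKM. The adaptor genes Sh2d1a (0.305 and 0.346 against 1.79 and 0.173 RPKM) and Sh2d1b1 (1.23 and 1.16 against 0.798 and 0.132 RPKM) were low in every library. Slamf7 and Sh2d1b1 reached 1 RPKM, the level needed to enter the table, in WT libraries alone. Slamf6, Slamf8 and Slamf9 were not analysed here. Cd2, the other receptor of CD48 and a T cell gene, was at 0.714 and 1.24 against 8.39 and 1.12 RPKM, high in JMJD1B-/- replicate 1 alone. Markers of T and NK cells were also most abundant in that library. Their sum over 13 genes was 35.3 and 44.4 RPKM in WT and 85.2 and 23.8 RPKM in JMJD1B-/- libraries, and none was at 0. At an unadjusted p under 0.05, 1 was lower and 2 were higher, beside 6.33% and 3.81% of all genes tested. Cd3g, 1 of the higher, was at 0.444 and 0.474 against 11.7 and 1.66 RPKM. It reached 1 RPKM in JMJD1B-/- libraries alone. The part of T and NK cells in the SLAM values was not tested.

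Procr (EPCR) was the lowest of the 9 genes in every library. It was at 1.47 and 0.615 RPKM in WT and at 0.543 and 0.180 RPKM in JMJD1B-/- libraries, so that JMJD1B-/- replicate 1 came just under WT replicate 2. Its JMJD1B-/- values were close to the 0.491 and 0.143 RPKM that 3 reads on 1 kb amount to in those libraries by the estimated depth. The WT libraries alone were 2.39-fold apart. The log2 fold change was -1.32 (SE 0.93, limma, unadjusted p = 0.197), with a 95% interval of -3.50 to 0.86. Without JMJD1B-/- replicate 1, the shallowest library, it was -1.92 with an unadjusted p of 0.0349 from limma. It was -0.75 without WT replicate 1 and -0.72 without JMJD1B-/- replicate 2 (unadjusted p = 0.640 and 0.350, limma), and -0.57 with a pseudocount of 1. Thbd, the thrombomodulin that works with EPCR in activating protein C, was at 3.84 and 3.34 against 3.57 and 2.42 RPKM, and F2r, the thrombin receptor, at 17.3 and 15.8 against 15.2 and 31.3 RPKM. Both overlapped between genotypes, and Proc was not analysed here.

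Angpt1 was as abundant as Kit in WT HSPCs, and its receptor Tek was low. Angpt1 was at 76.0 and 54.9 RPKM in WT and at 30.4 and 45.8 RPKM in JMJD1B-/- libraries, and no JMJD1B-/- value reached a WT value. Its log2 fold change was -0.79 (SE 0.26, limma, unadjusted p = 0.0174, adjusted p = 0.403). It lay between -1.08 and -0.49 when a library was left out, and its unadjusted p exceeded 0.05 only without WT replicate 1 (-0.55, unadjusted p = 0.149 with limma).

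Tek was at 3.54 and 4.14 RPKM in WT and at 1.64 and 2.33 RPKM in JMJD1B-/- libraries, which did not overlap either. The log2 fold change was -0.93 (SE 0.39, limma, unadjusted p = 0.0468, adjusted p = 0.488). Its unadjusted p exceeded 0.05 when WT replicate 1, WT replicate 2 or JMJD1B-/- replicate 1 was left out, at -1.04, -0.82 and -0.69, and not without JMJD1B-/- replicate 2, at -1.17. The ratio of ligand to receptor within a library was 21.5 and 13.3 in WT and 18.5 and 19.6 in JMJD1B-/-, so the JMJD1B-/- ratios lay inside the WT range. Tie1, the partner of TIE2 without a ligand of its own, was at 14.0 and 5.95 against 2.96 and 6.16 RPKM (log2 fold change -1.08, limma, unadjusted p = 0.0618). Angpt2 and Angpt4 were not analysed here.

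Megakaryocytes also make Angpt1, and endothelial cells Tek. Of 10 megakaryocyte markers, 6 were lower and 0 higher at an unadjusted p under 0.05, beside 6.33% and 3.81% of all genes tested. Their sum was 726 and 663 RPKM in WT and 283 and 410.5 RPKM in JMJD1B-/- libraries. Pf4, a platelet chemokine, was at 348 and 308 against 92.8 and 167 RPKM. Like Angpt1 and Tek, it was lower in JMJD1B-/- replicate 1 than in replicate 2. Of 8 endothelial and stromal markers, 3 were lower and 0 higher at an unadjusted p under 0.05, beside the same shares of all genes. Col1a2, 1 of the 3, was at 2.69 and 9.78 against 0.725 and 0.757 RPKM. It reached 1 RPKM, the level needed to enter the table, in WT libraries alone. The sum of the 8 was 55.8 and 75.8 RPKM in WT and 29.1 and 14.8 RPKM in JMJD1B-/- libraries. Pecam1 made up much of that sum and is also made by hematopoietic cells, while the collagen gene Col1a1 was at 15.7 RPKM in WT replicate 2 and at 0.997 RPKM in WT replicate 1. No gene of either list was at 0. Their part in the Tek and Angpt1 values was not tested.

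**Figure D2:**
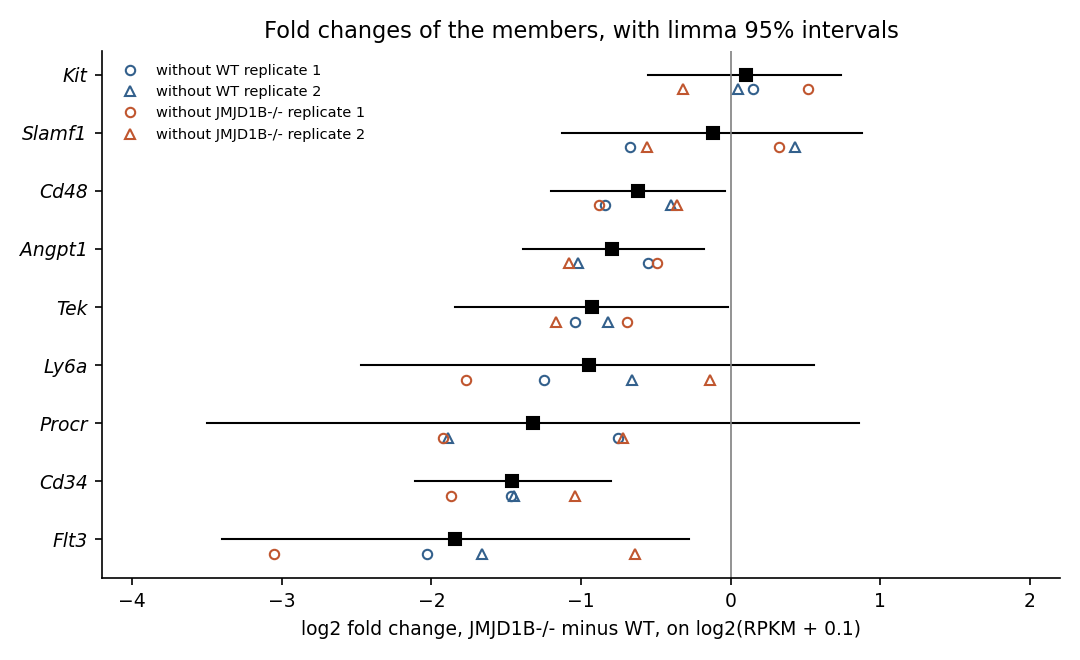
Log2 fold change (JMJD1B-/- minus WT, on log2(RPKM + 0.1)) of the 9 genes. Black squares are the limma estimates from 4 libraries, black lines their 95% intervals, and open symbols below them the estimates when the library named in the key was left out. All estimates for Flt3, Cd34, Procr, Ly6a, Tek, Angpt1 and Cd48 are below 0, and those for Kit and Slamf1 lie on both sides of it.

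Which JMJD1B-/- library was the lowest differed by gene. JMJD1B-/- replicate 2 had the lowest value of all 4 libraries for Flt3, Cd34, Ly6a, Cd48 and Procr, and JMJD1B-/- replicate 1 had the lowest for Kit, Slamf1, Tek and Angpt1. The order of the 9 genes by RPKM, which is per length, differed little between libraries. Kit and Angpt1 held ranks 1 and 2 in the WT libraries and in JMJD1B-/- replicate 2, and Cd48 came between them in JMJD1B-/- replicate 1. In WT, Kit (64.7 ± 3.14 RPKM, SD, n = 2) and Angpt1 (65.4 ± 14.9 RPKM) were within their spread, as were Cd48 (44.3 ± 9.38 RPKM) and Cd34 (43.2 ± 0.491 RPKM). Flt3 (28.9 ± 5.30 RPKM), Slamf1 (10.7 ± 5.53 RPKM) and Tek (3.84 ± 0.424 RPKM) followed with no overlap between neighbours. Ly6a (2.44 ± 0.732 RPKM) and Procr (1.04 ± 0.606 RPKM) closed the order, also without overlap. Flt3 ranked below Slamf1 in JMJD1B-/- replicate 2.

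Dividing a gene by Kit within its library removes any factor common to all genes of that library. Procr was not divided by Kit, so its lack of overlap was not examined in this way. Flt3 per Kit was 0.376 and 0.522 in WT and 0.356 and 0.0363 in JMJD1B-/- libraries, so replicate 1 came close to WT and replicate 2 did not. Cd34 per Kit was 0.640 and 0.697 against 0.405 and 0.127. Angpt1 per Kit was 1.14 and 0.878 against 0.590 and 0.494, and Tek per Kit 0.0529 and 0.0662 against 0.0318 and 0.0252. These 4 ratios did not overlap between genotypes, and the share of all genes without overlap per Kit was not counted. Kit itself differed 1.80-fold between the JMJD1B-/- libraries and was higher in replicate 2, which lowers every replicate 2 ratio. The ratios of Cd48, Slamf1 and Ly6a to Kit did overlap, at 0.563 and 0.816 against 0.662 and 0.256 for Cd48, 0.101 and 0.233 against 0.129 and 0.134 for Slamf1, and 0.0288 and 0.0474 against 0.0420 and 0.00678 for Ly6a. The share of Kit in the summed RPKM of the 9 genes was 25.5% and 23.4% in WT and 31.0% and 48.0% in JMJD1B-/- libraries.

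**Figure D3:**
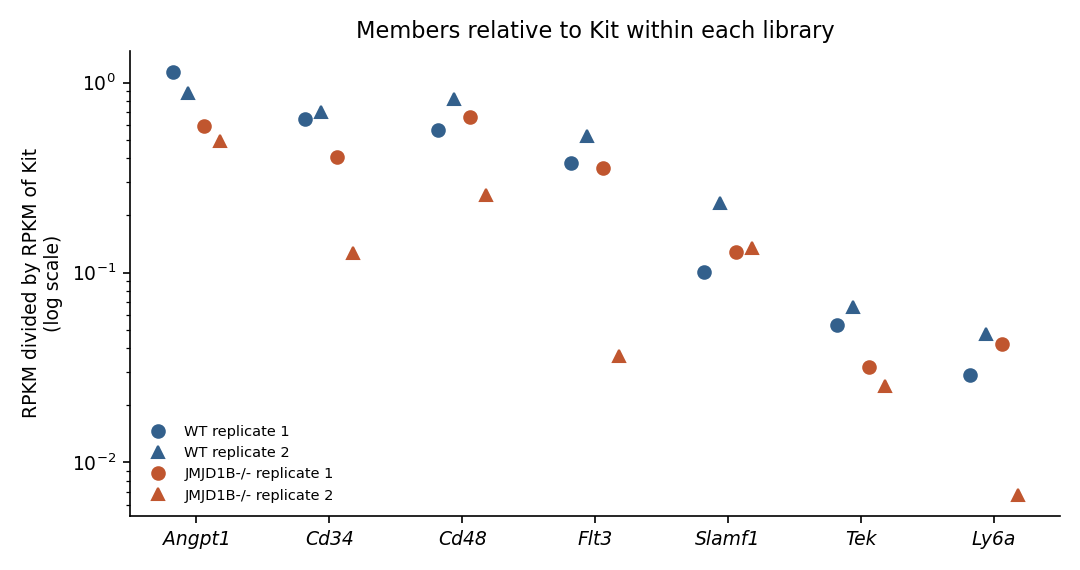
RPKM of 7 genes divided by the RPKM of Kit in the same library, on a log scale. Blue symbols are WT and orange symbols JMJD1B-/- libraries, circles replicate 1 and triangles replicate 2. The orange symbols lie below the blue ones for Angpt1, Cd34, Flt3 and Tek. For Slamf1 both lie between the blue ones, and for Cd48 and Ly6a the circle lies between them and the triangle below them.

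Ligands and partners of the receptors were followed as a list of 11 genes, of which 7 were tested. At an unadjusted p under 0.05, 2 were lower and 0 higher, beside 6.33% and 3.81% of all genes tested. The median log2 fold change was -0.28, and it was -0.18 without WT replicate 1, -0.55 without JMJD1B-/- replicate 1, -0.12 without JMJD1B-/- replicate 2 and -0.05 after quantile normalization. Cd244, given above, was among the lower ones. Flt3l, the ligand of FLT3, was at 8.86 and 10.8 against 10.9 and 11.4 RPKM, and its log2 fold change of 0.18 (SE 0.23) had a 95% interval of -0.36 to 0.73. Kitl was not analysed here.

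Other surface proteins of HSPCs formed a wider list of 33 genes, of which 31 were tested. At an unadjusted p under 0.05, 12 were lower and 2 higher, beside 6.33% and 3.81% of all genes tested. Both JMJD1B-/- values were under WT for 14 and above WT for 5, beside 22.7% and 20.1% of all genes. The median log2 fold change was -0.41, and it was -0.26 without WT replicate 1. Among those with an unadjusted p under 0.05, the lowest fold changes were those of Csf1r, given above, Csf2rb, the shared receptor subunit for IL-3, IL-5 and GM-CSF (25.0 and 17.1 against 12.0 and 3.77 RPKM, log2 fold change -1.60), and the adhesion protein Alcam (5.83 and 4.38 against 1.71 and 1.51 RPKM, -1.60). Their unadjusted p-values with limma were 0.00484, 0.0138 and 0.00337. The higher ones were the tetraspanin Cd82, at 19.1 and 24.0 against 41.1 and 42.9 RPKM (log2 fold change 0.97, limma, unadjusted p = 0.00148), and Art4, which carries a blood group antigen on red cells, at 6.49 and 4.20 against 11.0 and 8.60 RPKM (0.88, limma, unadjusted p = 0.0228). These 5 genes had adjusted p-values of at least 0.203 with limma. Robo4, which reached 1 RPKM in WT libraries alone, was at 1.58 and 1.22 RPKM in WT and at 0 and 0.568 RPKM in JMJD1B-/- libraries. Erythroid markers were higher beside Cd82 and Art4. Of 14, 0 were lower and 12 higher at an unadjusted p under 0.05, and their sum was 907 and 1304 RPKM in WT and 2374 and 3601 RPKM in JMJD1B-/- libraries, with no marker at 0. The values of Hba-a1 and Hba-a2, and of Hbb-b1 and Hbb-b2, were nearly the same in each library, so these genes may share reads. Mast cells also carry KIT. Of 8 basophil and mast cell markers tested, 7 were lower and 0 higher at an unadjusted p under 0.05, their sum was 516 and 588 against 123 and 62.0 RPKM, and none was at 0. The part of erythroid, basophil and mast cells in these values and in that of Kit was not tested.

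Inside the cell, KIT, FLT3 and TIE2 signal through shared adaptors and kinases. Of 28 genes that carry the signal, 2 were lower and 0 higher at an unadjusted p under 0.05, with a median log2 fold change of -0.07, a count near the 6.33% of all genes tested that were lower. They were the Src family kinase gene Fyn, at 21.3 and 21.5 against 15.8 and 13.2 RPKM (log2 fold change -0.57, limma, unadjusted p = 0.0265), and Stat3, at 23.3 and 21.7 against 15.2 and 15.4 RPKM (-0.56, limma, unadjusted p = 0.0228). The fold changes of the 28 genes ran from -0.57 to 0.32. Of 10 genes that restrain the signal, 2 were lower and 0 higher, beside 6.33% and 3.81% of all genes tested, with a median of -0.16. The medians were -0.20 and -0.26 without JMJD1B-/- replicate 2 and -0.02 and -0.09 without JMJD1B-/- replicate 1, and that of the genes that carry the signal was -0.18 without WT replicate 2. These were Sh2b3, which encodes the adaptor LNK, at 8.16 and 9.11 against 5.92 and 4.89 RPKM (-0.67, limma, unadjusted p = 0.0371), and Dok2, at 35.9 and 18.5 against 17.5 and 9.04 RPKM (-1.03, limma, unadjusted p = 0.0344). Hras and Socs1 were not analysed here.

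Of 18 stem cell genes other than surface receptors, 5 were lower and 1 higher at an unadjusted p under 0.05, beside 6.33% and 3.81% of all genes tested. Their median log2 fold change was -0.41, and it was -0.66 without WT replicate 2 and -0.24 without JMJD1B-/- replicate 1. Gata2, a regulator of stem cells and of mast cells, was at 73.3 and 52.9 against 28.4 and 46.9 RPKM (-0.77, limma, unadjusted p = 0.0275). Mecom, which encodes the transcription factor EVI1, was at 3.38 and 2.71 against 1.25 and 1.20 RPKM (-1.24, limma, unadjusted p = 0.0246). Meis1 (-0.62), Ctnnal1 (-1.33) and Gfi1 (-1.37) were the other lower genes. Gfi1b, a regulator of erythroid and megakaryocytic cells, was the higher one, at 24.3 and 23.2 against 35.5 and 50.7 RPKM (0.84, limma, unadjusted p = 0.00625).

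**Figure D4:**
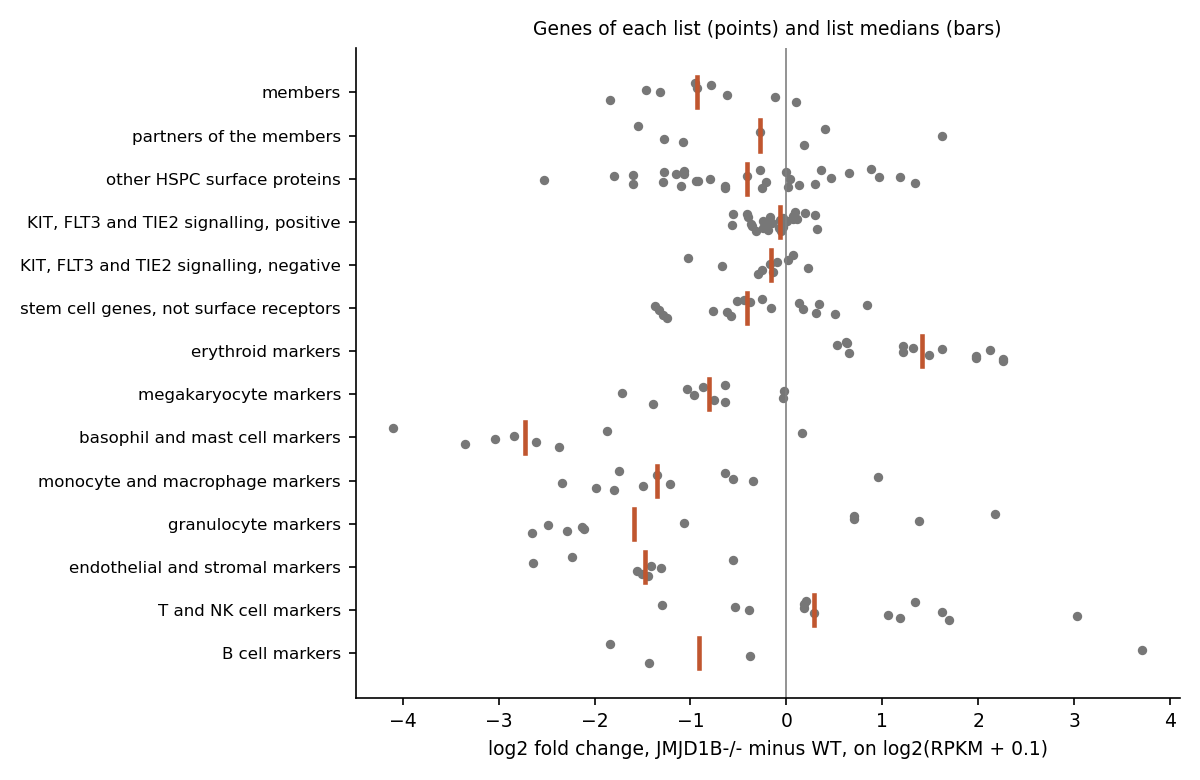
Log2 fold change (JMJD1B-/- minus WT, on log2(RPKM + 0.1)) of the genes of 14 lists, with grey points for genes and orange bars for list medians. The median of the 9 genes described here was -0.93, that of other surface proteins -0.41, that of erythroid markers 1.41 and that of basophil and mast cell markers -2.73, beside -0.025 over all genes tested.

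For the genes described here the single gene with the nearest pattern over the 4 libraries was sought, as the Euclidean distance between log2(RPKM + 0.1) profiles centred on their own mean. Flt3 lay nearest to Mpeg1, a macrophage gene, at 22.8 and 30.1 RPKM in WT and 17.7 and 3.34 RPKM in JMJD1B-/- libraries (distance 0.102), and only 9 genes lay within a distance of 0.5. For Kit 3201 genes did so, the nearest being Zc3h8 (0.013). Cd48 lay nearest to Bst2 (0.071), Angpt1 to Slc12a9 (0.072), Tek to Zfp455 (0.127), Ly6a to Tespa1 (0.174), Slamf1 to Rdm1 (0.192) and Procr to Ntng2 (0.236). With 4 libraries such likeness is a description of these libraries.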

How the data were processed

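Polyadenylated RNA of HSPCs from 2 WT and 2 JMJD1B-/- bone marrow samples was sequenced after TruSeq library preparation. The authors deposited RPKM values plus 1, and 1 was subtracted here. The submitters' processing notes name TopHat2, Novoalign and the mouse build mm9, with no role for each. The counting program and annotation are not given in the sources used here. The table lists 12024 entries for 11982 names, and 42 names with several entries were averaged, none of them among the 9 genes. Each entry has at least 1 RPKM in some library, so genes absent from it were not analysed here. The 31 ChIP-seq samples of the series were not used here.

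Relative depth was estimated from genes whose values stood in ratios of whole numbers, with the chosen ratio to WT replicate 1 met by 149, 232 and 138 genes and the next best by 144, 217 and 123. Reads came from 19 genes that gave one depth with the transcript lengths of RefSeq, against at most 4 genes for any other depth. The relative tolerance for whole counts was 0.0003. The depth of JMJD1B-/- replicate 1 was then divided by 2, since all 37 whole counts found in that library were even. Its estimated reads and its floor of 0.491 RPKM rest on this division. The lengths the authors used are not known, so the depths are rough estimates, and the floors cover counting error only. No count test was run.

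Genes with a mean of at least 0.5 RPKM (11863) entered a linear model of log2(RPKM + 0.1) fitted with limma 3.58.1 (R 4.3.3, eBayes with trend, two-sided, no replicate term), with Benjamini-Hochberg adjustment over all of them. limma was also run on simulated counts with the same spread and transcript length for all genes, so that run is no check of the calls made here. The pseudocount understates changes of low genes. Tables and figures were made with Python 3.11.15, pandas 2.3.3, numpy 2.4.6 and matplotlib 3.10.9. The correlation of deviations of same-numbered libraries over genes was -0.0543. A single correlation over all genes cannot tell whether the libraries were paired. Promoters were taken from RefSeq (GRCm38.p6) by symbol, for sequence only.

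The genes and lists were chosen with earlier results of these data known. Named genes are the 9, Kdm3b, the partners and relatives of the 9, genes of other lists with an unadjusted p under 0.05 (the extreme 3 in each direction where more than 6 passed, and only some of them for marker lists), and the nearest gene by pattern. Robo4, Emr1, Pf4, Pecam1, Col1a1, Col1a2, Cd3g, Camp and Xist were named after their values were seen. Alternatives were other pseudocounts, filters, scalings and tests, a replicate block and leaving out each library. Some genes that this rule names are not reported here.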

Additional observations from a re-analysis of the deposited data

How the results depend on the processing

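Over 13 alternatives, the log2 fold changes of the 6 genes whose JMJD1B-/- values all lay under WT stayed negative, which their lack of overlap largely fixes in advance. The number of the 9 genes with an unadjusted p under 0.05, 5 as reported, was 3 after median-ratio scaling, 3 after quantile normalization, 2 with limma without a trend and 0 with a gene-by-gene Student test. It ranged from 2 to 7 when a library was left out, and the remaining alternatives stayed within 1.5 times. The number with an adjusted p under 0.05 was 0 as reported, 2 with a replicate block (Flt3, adjusted p = 0.00536, and Cd34, adjusted p = 2.59e-04, limma) and 0 to 3 when a library was left out. Tek had an unadjusted p of 0.0867 under the block. The replicate block raised the adjusted calls over all genes from 5 to 256. The labels give the libraries shared numbers only, and the correlation of their deviations cannot tell whether they were paired. Over all genes tested, 751 were lower and 452 higher at an unadjusted p under 0.05, and leaving out a library gave 177 to 1819 lower and 123 to 1258 higher genes. Lower genes made up 62.4% of those called, but 51.6% after quantile normalization. The sign of the log2 fold change turned for Slamf1 (range -0.67 to 0.43) and Kit (-0.32 to 0.52), and the median of the T and NK cell markers ranged from -0.19 to 1.63, when a library was left out. The fit without a library assumes that the lone library of a genotype varies like the other genotype, and the median of all genes was then -0.102 to 0.086. Procr was not tested at a mean of at least 1 RPKM. The cause of these shifts was not tested. By the estimated depth, the JMJD1B-/- values of Procr lie near 3 reads on 1 kb.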
